A study of Mus musculus with 9 samples.

Results

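The genes described here are 10 transcription factors of the cardiac lineage, Gata4, Gata6, Nkx2-5, Tbx5, Tbx20, Hand2, Mef2a, Mef2c, Srf and Myocd, in mouse ventricles exposed to adrenergic agonists. They were chosen by name, as factors that specify heart muscle and drive its gene programme, but with earlier results of these data known. All 10 were found among the 15149 genes with raw counts and stayed among the 14426 genes left by a filter on low counts. Poly(A) RNA of the right and left ventricle was sequenced from 9 wild-type C57Bl6N mice, with 3 hearts each for Ctr, ISO and ISO/PE. Ctr hearts (2 females, 1 male) were taken at 0 d without a pump. ISO mice (1 female, 2 males) carried an osmotic minipump that released isoprenaline, which stimulates beta-adrenoceptors, for 4 d (96 h) at a dose of 30 mg/kg per day, and ISO/PE mice (1 female, 2 males) received in addition phenylephrine, which stimulates alpha1-adrenoceptors, at the same dose of 30 mg/kg per day. The labels give an age of 2 to 3 months and no genetic change in any group. In a comparison with Ctr the drug, the implanted pump and the 4 d between the samplings cannot be told apart, whereas ISO/PE vs. ISO differs by phenylephrine. The hearts are told apart below by group, sex and the number in their names.

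GATA4, GATA6, NKX2-5, TBX5, TBX20, HAND2 and the MEF2 factors bind neighbouring sites in the control regions of cardiac genes and act together, in the embryo in laying down the heart and in the adult in keeping up the genes of contraction, conduction and metabolism. SRF binds the CArG box, found in genes of the actin cytoskeleton and in genes that respond at once to growth signals. Its partner decides which of these are served, since myocardin (Myocd) and the myocardin-related factors lead it to muscle and cytoskeletal genes, and ternary complex factors lead it to early response genes. GATA4, the MEF2 factors and SRF are also known as nuclear end points of hypertrophic signalling in heart muscle.

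The stretches of DNA around a gene's start show which of these factors' own binding letters lie there. RefSeq windows (build GRCm38.p6) of 300 bases, 250 before and 50 after a start, were at hand for 6 of the factors, with 3 starts for Mef2c, thus 8 windows. Gata4, Gata6, Tbx5 and Myocd had no entry. The windows were searched on both strands for AGATAA, bound by the zinc fingers of GATA factors, for AGGTGT, bound by T-box factors, for TNAAGTG, bound by NKX2-5, for CANNTG, the E-box of HAND2 and related factors, and for the MEF2 box and the CArG box, where N is any base and the MEF2 and CArG boxes do not overlap each other in these windows. The Srf window held 2 CArG boxes, which start 82 and 62 bases before the window's RefSeq start, and 1.63% of all 32851 windows hold any. The Mef2a window held a MEF2 box that begins 2 bases before its RefSeq start, against 3.19% of all windows. The RefSeq starts of the Srf and Mef2a windows lie inside the gene spans given below and not at their ends. Hand2 was the factor whose window held AGATAA (11.2% of all windows), 172 bases before the start, and it also held an E-box at 2 places (72.3% of all windows). AGGTGT was found in 1 window of Mef2c (13.7% of all windows) and TNAAGTG in none of the 8 (11.5% of all windows). The windows of Srf and Mef2a are shown because they hold the binding letters of the factor's own family, that of Hand2 for its GATA letters, and that of Tbx20 because this gene rose with both treatments. Capitals mark the CArG boxes in Srf, the MEF2 box in Mef2a and the complement of AGATAA in Hand2, and the Tbx20 window has none of these.
Srf, chr17:46556113-46556412, minus strand: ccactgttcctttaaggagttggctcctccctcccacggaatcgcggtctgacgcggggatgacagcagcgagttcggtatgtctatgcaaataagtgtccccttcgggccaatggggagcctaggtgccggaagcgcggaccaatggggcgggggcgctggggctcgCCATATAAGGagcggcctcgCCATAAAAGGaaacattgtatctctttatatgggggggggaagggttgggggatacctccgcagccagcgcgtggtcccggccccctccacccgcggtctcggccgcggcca
Mef2a, chr7:67372809-67373108, minus strand: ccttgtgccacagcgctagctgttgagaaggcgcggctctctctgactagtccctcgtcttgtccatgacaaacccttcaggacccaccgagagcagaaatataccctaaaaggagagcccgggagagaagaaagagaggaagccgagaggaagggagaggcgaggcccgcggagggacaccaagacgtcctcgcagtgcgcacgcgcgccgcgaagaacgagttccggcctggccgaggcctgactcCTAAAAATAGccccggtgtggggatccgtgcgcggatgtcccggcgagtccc
Hand2, chr8:57320733-57321032, plus strand: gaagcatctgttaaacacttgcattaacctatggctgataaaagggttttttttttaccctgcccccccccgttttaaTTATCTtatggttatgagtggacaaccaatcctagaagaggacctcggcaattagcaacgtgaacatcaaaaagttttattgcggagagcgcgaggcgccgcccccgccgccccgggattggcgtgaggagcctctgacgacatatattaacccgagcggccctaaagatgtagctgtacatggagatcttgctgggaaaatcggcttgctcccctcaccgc
Tbx20, chr9:24774254-24774553, minus strand: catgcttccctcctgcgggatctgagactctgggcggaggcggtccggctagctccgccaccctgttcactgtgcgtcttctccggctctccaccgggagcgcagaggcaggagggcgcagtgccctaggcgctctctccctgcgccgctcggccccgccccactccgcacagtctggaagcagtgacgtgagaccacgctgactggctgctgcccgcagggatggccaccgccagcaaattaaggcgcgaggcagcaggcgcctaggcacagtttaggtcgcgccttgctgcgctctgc

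Total counts per heart over all genes lay between 10172249 and 14477063, and the 10 factors had from 353 to 4034 counts in a heart. Levels are given as CPM, the counts of a gene per 1000000 counts of its library, after edgeR's TMM scaling of the libraries. All 18 cardiomyocyte markers examined had counts in every heart, as ventricle should, but their summed level was 120226 to 133153 CPM in Ctr, 90996 to 103055 under ISO and 56830 to 79301 under ISO/PE. The summed level of 14 fibroblast markers was 5794 to 6592, 9140 to 12567 and 14884 to 19173 CPM. Among them the collagen genes Col1a1, Col1a2 and Col3a1 had means of 283, 261 and 423 CPM in Ctr and 4519, 3049 and 5094 CPM under ISO/PE. Gsn went from 3091 to 1060 CPM and Dcn from 1314 to 1361 CPM, so the markers did not move together. The sum of 12 macrophage and monocyte markers was 753 to 942, 1549 to 2499 and 2492 to 3341 CPM. The 14 endothelial markers summed to 2730 to 3394, 2565 to 3230 and 2359 to 2525 CPM. In whole ventricle, a changed number of cells of a type and a changed level of a marker per cell cannot be told apart. The part of these shifts in the results below was not tested, but each result was recomputed with the libraries scaled to the cardiomyocyte markers.

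Per kilobase of transcript, the only scale on which levels of different genes are set beside each other here, Nkx2-5 stood highest in Ctr hearts, at 95.3 ± 2.85 CPM per kb (SD, n = 3). Gata4 followed at 64.0 ± 4.43 and Mef2a at 55.4 ± 2.27 CPM per kb, with no overlap between neighbours in the order. Srf (43.5 ± 4.62) and Hand2 (43.1 ± 5.96) overlapped and lay above Gata6 (36.8 ± 1.01). The lowest 4 were Tbx20 (16.6 ± 1.70), Mef2c (15.5 ± 1.04), Tbx5 (13.2 ± 1.37) and Myocd (10.98 ± 1.10 CPM per kb), of which Tbx20 overlapped with Mef2c and Tbx5 with Myocd. In ISO and ISO/PE hearts Nkx2-5 and Myocd kept the ends of this order, and Hand2 stood second, at 73.7 ± 10.03 and 64.1 ± 4.30 CPM per kb.

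**Figure D1:**
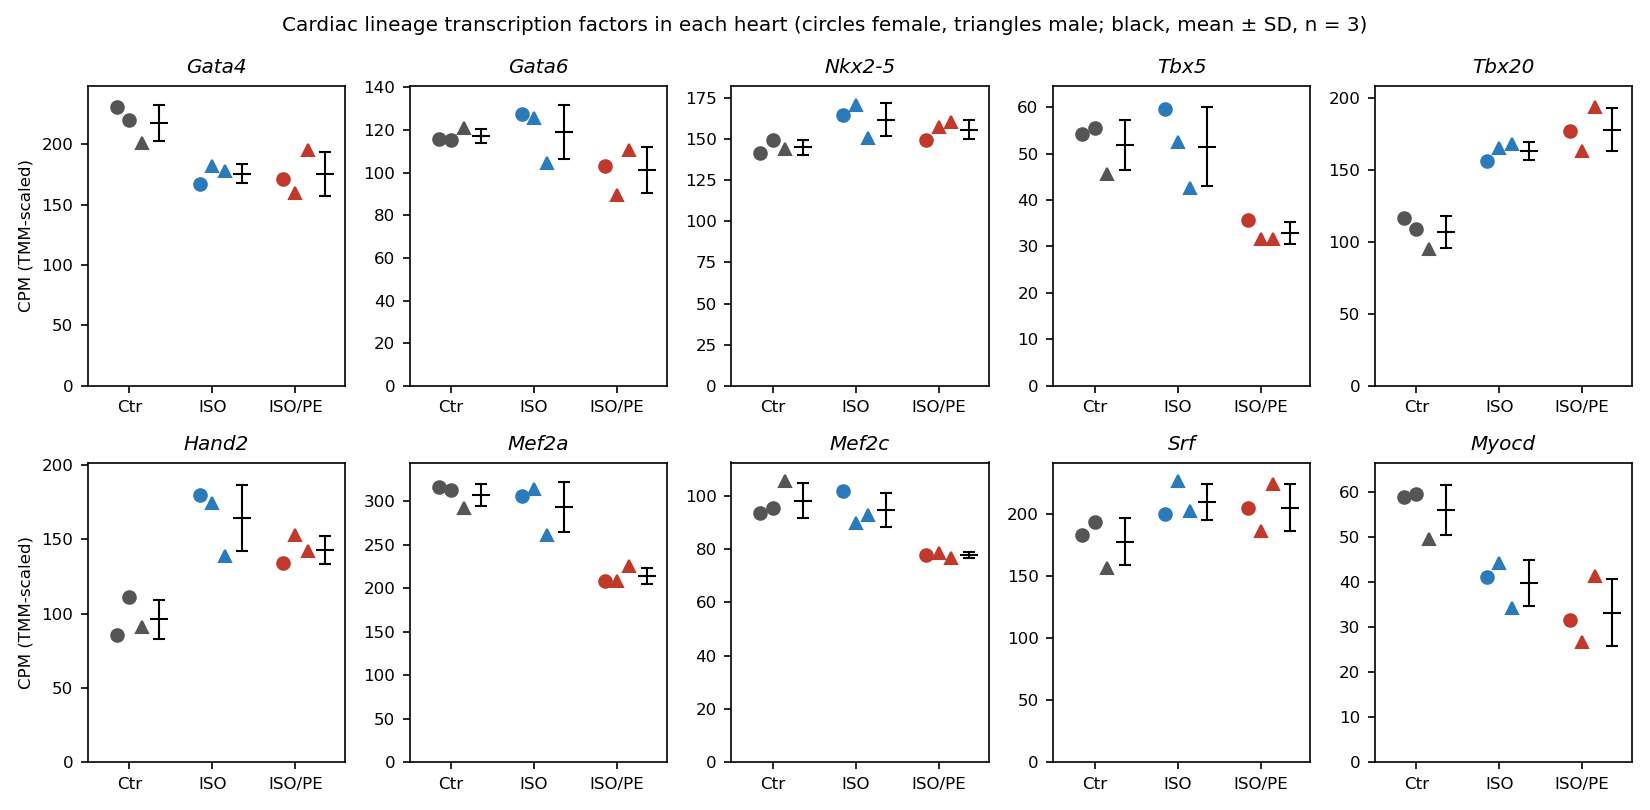
Level of each factor in each of the 9 hearts, in CPM from 0 upwards (y axis) by group (x axis), with circles for females, triangles for males and black marks for the mean ± SD of 3 hearts. Tbx20 and Hand2 lie higher in every ISO and ISO/PE heart than in any Ctr heart, Tbx5, Mef2a and Mef2c lie lower in every ISO/PE heart than in any other, and Nkx2-5 overlaps between ISO/PE and Ctr.

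A gene was called higher or lower when edgeR's quasi-likelihood test gave a Benjamini-Hochberg adjusted p under 0.05 over all 14426 genes and the log2 fold change (log2FC) was beyond 0.6 in size, the thresholds of the study. In ISO/PE vs. Ctr 1 factor, Tbx20, was called higher and 2, Tbx5 and Myocd, were called lower, where 16% of all genes tested were called higher and 10.1% lower. In ISO vs. Ctr Tbx20 and Hand2 were called higher (10.4% of all genes) and 0 factors lower (2.99% of all genes), with 2 lower at an unadjusted p under 0.05 in edgeR and 0 called lower by DESeq2 or limma-voom. In ISO/PE vs. ISO 0 factors were called higher (3.64% of all genes), also 0 at an unadjusted p under 0.05 and by DESeq2 or limma-voom, and 1, Tbx5, lower (2.81% of all genes). By the adjusted p alone, 7 factors differed in ISO/PE vs. Ctr, 4 in ISO vs. Ctr and 3 in ISO/PE vs. ISO, where 47.1%, 24.8% and 14.4% of all genes did. The levels of the groups did not overlap for 8, 6 and 3 factors in the same order of comparisons, against 56.4%, 43.5% and 33.3% of all genes. The median log2FC of the 10 factors was -0.26 in ISO/PE vs. Ctr, 0.01 in ISO vs. Ctr and -0.22 in ISO/PE vs. ISO, with -0.01, -0.01 and 0.00 for all genes. The numbers of called factors lie within 1 of what these shares of all genes would give for 10 genes, and those by the adjusted p alone within 3.

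The scaling of the libraries decided the sign of several values. Scaled to the summed counts of the cardiomyocyte markers, the median log2FC of all genes was 0.88 in ISO/PE vs. Ctr, 0.35 in ISO vs. Ctr and 0.53 in ISO/PE vs. ISO, and 71.4% of all genes were called higher and 1.03% lower in ISO/PE vs. Ctr. Against the markers, all 10 factors had a log2FC above 0 in ISO/PE vs. Ctr, from 0.15 for Myocd to 1.63 for Tbx20, and 5 of them, Gata6, Nkx2-5, Tbx20, Hand2 and Srf, were called higher, while Tbx5 and Myocd were not called. Directions below are relative to the bulk of genes, which TMM holds near 0. Relative to the summed markers the lower values of Gata4, Gata6, Tbx5, Mef2a, Mef2c and Myocd in ISO/PE vs. Ctr turn to higher ones. Those of Tbx20 and Hand2 stay higher. The markers did not move together, so their sum does not stand for all cardiomyocyte RNA. With TMM scaling 12 of the 18 were called lower in ISO/PE vs. Ctr (10.1% of all genes), such as Fabp3 (log2FC -1.63) and Myh6 (-1.45). The other 6 were not called, among them Actc1 (-0.01), Actn2 (0.08) and Ryr2 (-0.13).

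**Figure D2:**
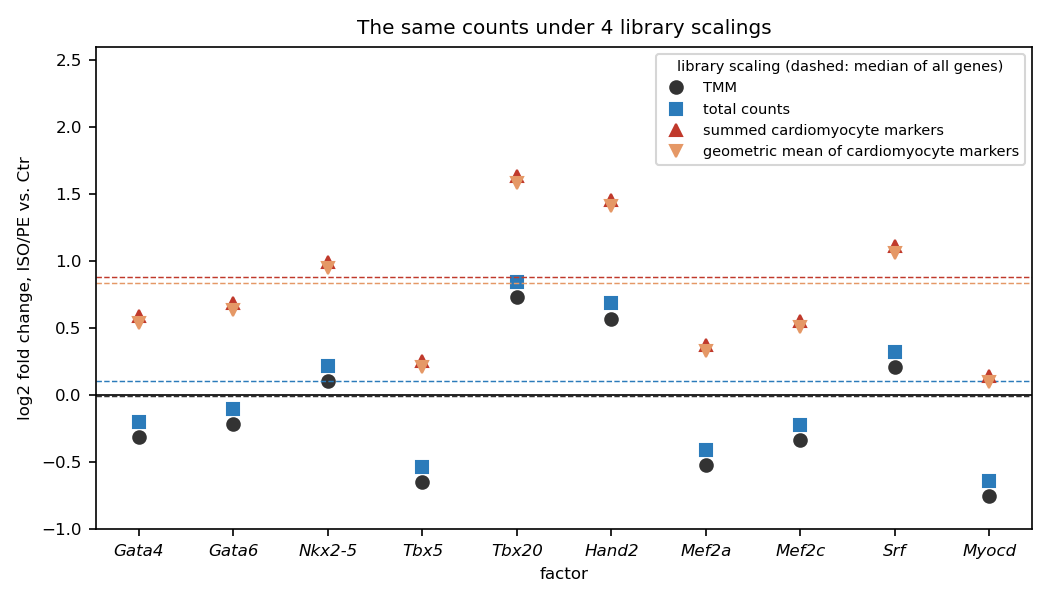
Log2 fold change of each factor in ISO/PE vs. Ctr (y axis) for the 10 factors (x axis) with libraries scaled by TMM, by total counts, by summed cardiomyocyte marker counts or by the geometric mean of these markers, with the median of all genes under each scaling as a dashed line. The marker scalings lift all 10 factors above 0. A scaling shifts all genes by nearly the same amount, so each factor keeps its distance from the dashed median, and this tests nothing. Tbx20, Hand2, Srf and Nkx2-5 lie above that median and the other factors below it.

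Tbx20, a T-box factor needed in adult heart muscle for contraction and calcium handling (gene at chr9:24720812-24774303, mm10), had the clearest rise. Its level was 117, 109 and 95.1 CPM in Ctr female1, female2 and male1. The ISO hearts, in the order female2, male1, male2, had 156, 165 and 168 CPM, and the ISO/PE hearts, in that order, 177, 163 and 193 CPM. Every treated heart thus lay above every Ctr heart, and ISO and ISO/PE hearts overlapped. The rise was 1.66-fold in ISO/PE vs. Ctr (log2FC 0.73 ± 0.10 SE, adjusted p = 0.000104, edgeR) and 1.52-fold in ISO vs. Ctr (log2FC 0.61 ± 0.10, adjusted p = 0.00108). With phenylephrine added, the log2FC to ISO was 0.13 ± 0.10 (adjusted p = 0.394). The ISO value lies at the edge of the fold threshold: without Ctr male1 it was 0.53, without ISO male1 0.58 and without ISO male2 0.59, each with the fold call lost and the adjusted p kept. The counts are those of the long transcript of 6426 bases, and a short one of 1792 bases, which shares reads with it, had 11.7% to 16.7% of its count in Ctr, 12.5% to 17.7% in ISO and 10.6% to 16.2% in ISO/PE hearts.

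Tbx5, the T-box factor of the atria, the ventricles and the conduction system (chr5:119796514-119885220), went the other way and did so where phenylephrine was given. The Ctr hearts had 54.3, 55.5 and 45.6 CPM and the ISO hearts 59.5, 52.4 and 42.6 CPM. The ISO/PE hearts had 35.6, 31.6 and 31.6 CPM, and each lay below all 6 others. Tbx5 fell to 0.637 of the Ctr level in ISO/PE hearts (log2FC -0.65 ± 0.13, adjusted p = 0.00136, edgeR) and to 0.640 of the ISO level (log2FC -0.64 ± 0.12, adjusted p = 0.00846), while ISO vs. Ctr gave a log2FC of -0.01 ± 0.12 (adjusted p = 0.971). The fold call in ISO/PE vs. ISO was lost without ISO female2, the heart with the highest level (log2FC -0.53, adjusted p = 0.0326), and both calls were lost with total-count scaling (-0.54 vs. Ctr and -0.59 vs. ISO) and among males alone (-0.52 and -0.58, adjusted p = 0.0619 and 0.102). Scaled to the cardiomyocyte markers the log2FC of Tbx5 was 0.26 in ISO/PE vs. Ctr (adjusted p = 0.179) and -0.09 in ISO/PE vs. ISO (adjusted p = 0.673).

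Because both T-box genes are counted in the same library, their ratio does not depend on the scaling. Tbx20 had 2.15, 1.97 and 2.09 times the count of Tbx5 in the Ctr hearts, 2.62, 3.15 and 3.94 times in the ISO hearts and 4.97, 5.17 and 6.12 times in the ISO/PE hearts. The 3 groups did not overlap. The mean ratio was 2.07 ± 0.09, 3.24 ± 0.66 and 5.42 ± 0.61 (SD, n = 3). The ratios were formed after the values were seen and carry no test.

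**Figure D3:**
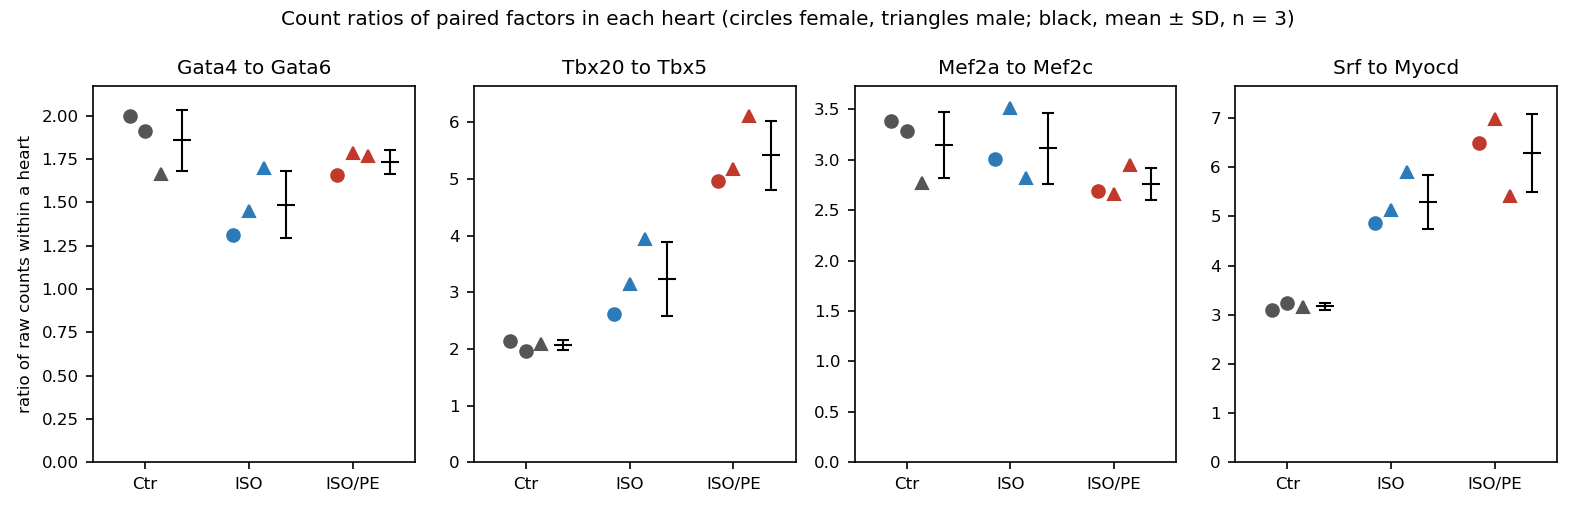
Ratio of raw counts within each heart (y axis, from 0) by group (x axis) for 4 pairs of factors, with circles for females, triangles for males and the mean ± SD of 3 hearts in black. The ratio of Tbx20 to Tbx5 separates all 3 groups, that of Srf to Myocd separates Ctr from the treated hearts, and those of Gata4 to Gata6 and Mef2a to Mef2c overlap.

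Hand2, a basic helix-loop-helix factor of the right ventricle and of cardiac mesenchyme (chr8:57320983-57324517), had 86.0, 111 and 91.3 CPM in the Ctr hearts, 180.0, 175 and 139 CPM in the ISO hearts and 134, 153 and 142 CPM in the ISO/PE hearts. All treated hearts lay above all Ctr hearts, and the ISO and ISO/PE ranges overlapped. Hand2 rose 1.71-fold in ISO vs. Ctr (log2FC 0.77 ± 0.12, adjusted p = 0.00105, edgeR) and kept this call in each fit that left out a heart. The ISO/PE hearts were 1.49-fold above the Ctr hearts (log2FC 0.57 ± 0.12, adjusted p = 0.00268), just short of the fold threshold, which Hand2 passed without Ctr female2 (0.68) or without ISO/PE female2 (0.62). ISO/PE vs. ISO gave -0.20 ± 0.12 (adjusted p = 0.277). Of the exon bases of Hand2, 19.6% are shared with the antisense gene Hand2os1, and the counting took no account of strand, so the reads of both cannot be told apart there. Hand2os1 had 38.3 to 42.8 CPM in Ctr, 64.7 to 68.1 in ISO and 46.7 to 72.5 in ISO/PE hearts, with a log2FC of 0.73 ± 0.14 in ISO vs. Ctr (adjusted p = 0.00324). Tcf21, a factor of cardiac fibroblasts, was the gene among 38 other cardiac transcription factors called higher in ISO vs. Ctr, and of 14 fibroblast markers 10 were called higher in ISO vs. Ctr and 8 in ISO/PE vs. Ctr (10.4% and 16% of all genes). Gsn, the most abundant of these markers in Ctr hearts, was called lower in both (log2FC -1.03 and -1.54), and Dcn, Pdgfra and Ddr2 were called in neither.

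**Figure D4:**
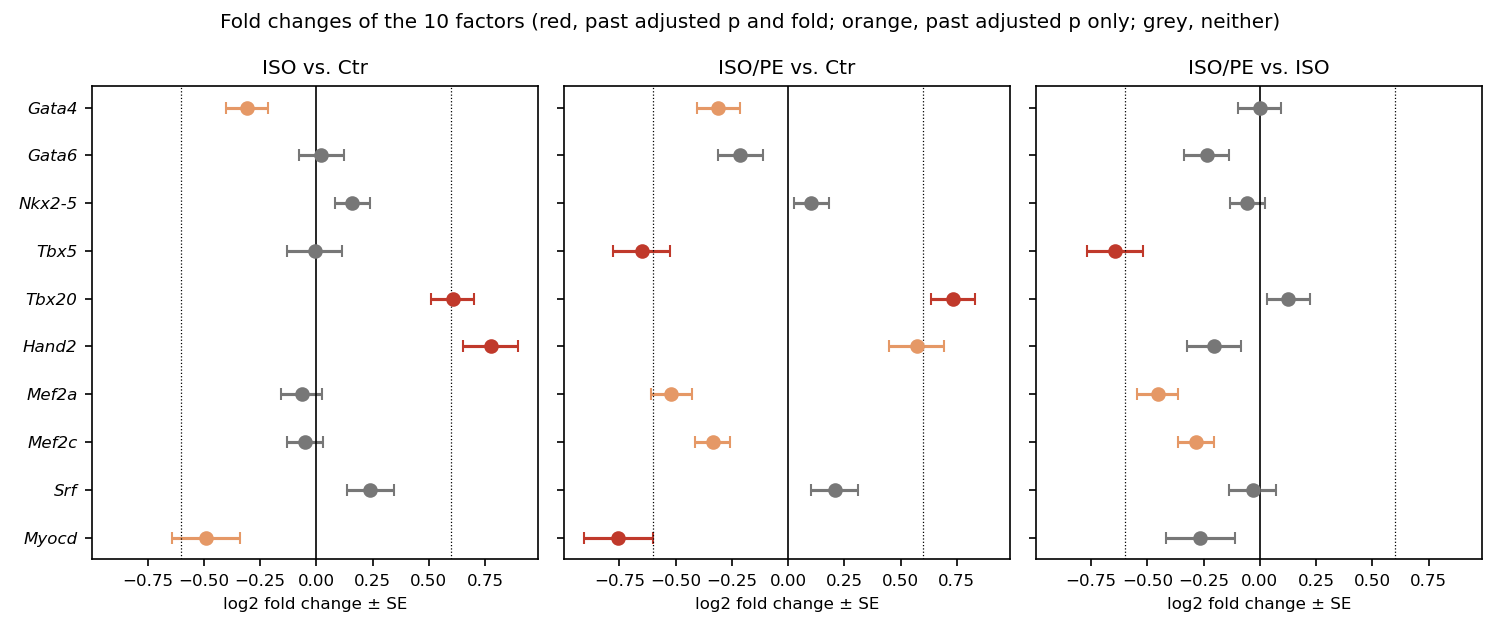
Log2 fold change ± SE (x axis) of the 10 factors (y axis) in each comparison, from 1 edgeR fit of 9 hearts, with dotted lines at the fold threshold of 0.6. Tbx20 and Hand2 are to the right in ISO vs. Ctr, whereas Tbx5, Mef2a and Mef2c are to the left in ISO/PE vs. Ctr and vs. ISO, directions that turn for ISO/PE vs. Ctr when libraries are scaled to cardiomyocyte markers.

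The MEF2 factors, MADS-box proteins that drive muscle genes and take part in stress signalling, followed Tbx5 in the order of the groups at a smaller size. Mef2a (chr7:67231163-67376456) had 316, 313 and 293 CPM in Ctr, 306, 314 and 261 CPM under ISO and 209, 209 and 225 CPM under ISO/PE. Mef2c (chr13:83504017-83667079) had 93.4, 95.3 and 106 CPM in Ctr, 102, 89.7 and 92.6 CPM in ISO and 77.8, 78.7 and 76.6 CPM in ISO/PE hearts. For both genes every ISO/PE heart lay below all 6 others. Mef2a was 30.2% lower in ISO/PE vs. Ctr on the linear scale (log2FC -0.52 ± 0.09, adjusted p = 0.000773, edgeR) and its log2FC vs. ISO was -0.45 ± 0.09 (adjusted p = 0.00987), and Mef2c had log2FC values of -0.34 ± 0.08 (adjusted p = 0.00487) and -0.28 ± 0.08 (adjusted p = 0.0351). All 4 passed the adjusted p and missed the fold threshold, and that of Mef2c vs. ISO was the least firm, with an adjusted p of 0.0378 to 0.142 when a heart was left out and of 0.0775 with total-count scaling. Scaled to the cardiomyocyte markers, their signs turned in both comparisons. In ISO vs. Ctr Mef2a had -0.06 ± 0.09 and Mef2c -0.05 ± 0.08 (adjusted p = 0.647 and 0.677). The ratio of Mef2a to Mef2c counts was 2.77 to 3.39 in Ctr, 2.82 to 3.51 in ISO and 2.66 to 2.94 in ISO/PE hearts, with overlap between all groups. Mef2a is listed with 7 transcripts and Mef2c with 18, whose counts came to at least 99.5% and 96.6% of the highest, so that they are mostly the same reads. Of the exon bases of Mef2a, 2.06% are shared with the antisense gene Lysmd4. Lysmd4 had log2FC values of -0.57 ± 0.12 in ISO/PE vs. Ctr and -0.45 ± 0.12 in ISO vs. Ctr (adjusted p = 0.00238 and 0.0176, edgeR). In ISO/PE vs. ISO it had -0.12 ± 0.12 (adjusted p = 0.535, edgeR). The part of this overlap in the counts of Mef2a was not tested.

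Myocd, the muscle-restricted partner of SRF (chr11:65173608-65269989), was the factor with the deepest fall. The Ctr hearts had 59.0, 59.5 and 49.6 CPM, the ISO hearts 41.2, 44.2 and 34.3 CPM and the ISO/PE hearts 31.6, 26.7 and 41.3 CPM. Every treated heart lay below every Ctr heart, and ISO and ISO/PE hearts overlapped. Myocd fell to 0.593 of the Ctr level in ISO/PE hearts (log2FC -0.75 ± 0.15, adjusted p = 0.00187, edgeR). In ISO vs. Ctr the log2FC was -0.49 ± 0.15, short of the fold threshold (adjusted p = 0.0351, edgeR, and 0.0103 to 0.131 when a heart was left out). ISO/PE vs. ISO gave -0.26 ± 0.15 (adjusted p = 0.264, edgeR). In the fit of males alone, which holds 1 Ctr heart, the value in ISO/PE vs. Ctr was -0.53 (adjusted p = 0.189), and scaled to the cardiomyocyte markers it was 0.15 (adjusted p = 0.461). The genes whose log2 CPM ran most like that of Myocd over the 9 hearts were Larp4 (Pearson r = 0.988), Sun2 (r = 0.985) and Trabd2b (r = 0.980). These values describe hearts that share their libraries and groups. Of these genes Trabd2b was called lower in ISO/PE vs. Ctr (log2FC -0.79) and in ISO vs. Ctr (log2FC -0.64).

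Srf itself (chr17:46546838-46558267) was at 183, 193 and 157 CPM in Ctr, 200.3, 226 and 203 CPM under ISO and 205, 186 and 224 CPM under ISO/PE. ISO hearts lay above Ctr hearts without overlap, and ISO/PE hearts overlapped with both. The log2FC was 0.24 ± 0.10 in ISO vs. Ctr (adjusted p = 0.116, edgeR), 0.21 ± 0.10 in ISO/PE vs. Ctr (adjusted p = 0.123) and -0.03 ± 0.10 in ISO/PE vs. ISO (adjusted p = 0.860), and the first of these values had an unadjusted p of 0.0409. The count of Srf was 3.10, 3.25 and 3.16 times that of Myocd in the Ctr hearts, 4.86, 5.12 and 5.91 times in the ISO hearts and 6.48, 6.97 and 5.42 times in the ISO/PE hearts. The ratio was thus higher in all treated hearts than in any Ctr heart.

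Of 35 target genes of SRF and its myocardin-related partners, 23 were called higher and 1 lower in ISO/PE vs. Ctr (16% and 10.1% of all genes), 7 and 0 in ISO vs. Ctr (10.4% and 2.99%), and 10 and 0 in ISO/PE vs. ISO (3.64% and 2.81%), with median log2FC values of 0.90, 0.42 and 0.44. Where 0 were called lower by edgeR, 2 in ISO vs. Ctr and 4 in ISO/PE vs. ISO were lower at an unadjusted p under 0.05, and DESeq2 and limma-voom called 0. The 7 in ISO vs. Ctr became 5 to 12 when a heart was left out, with 11 without Ctr male1 and 12 without ISO female2. With the replicate name as a term they became 5. The rises included Cnn1, an actin-binding calponin of smooth muscle, from 3.81 ± 0.589 to 41.1 ± 14.3 CPM (log2FC 3.43 ± 0.26, adjusted p = 4.47e-06), and Ccn2, a matricellular growth factor, from 89.1 ± 15.5 to 649.9 ± 101 CPM (log2FC 2.87 ± 0.16, adjusted p = 1.12e-06). Fhl1, a LIM protein of the sarcomere, had a log2FC of 1.85 ± 0.16, the actin-binding Tagln 1.80 ± 0.13 and the smooth muscle actin Actg2 1.44 ± 0.23, all called. Others differed little, such as the cytoplasmic actin Actg1 (0.09) and the smooth muscle genes Myh11 (-0.11) and Lmod1 (-0.04), named after their values were seen. Fblim1, an adaptor of focal adhesions, was the gene called lower (log2FC -0.97, named after its value was seen). Of these 35 genes 5 are also among the cell type markers and 1 is Srf, and of the other 29 the calls in ISO/PE vs. Ctr were 20 higher and 1 lower. Smooth muscle and pericyte markers, several of them in this list, summed to 4800 to 5231 CPM in Ctr, 5074 to 5823 under ISO and 6906 to 7917 under ISO/PE. The muscle filament gene Des, also expressed in heart muscle, made up most of that rise, from 2490 ± 227 to 4741 ± 540.2 CPM. Of these 14 markers 5 were called higher and 3 lower in ISO/PE vs. Ctr (16% and 10.1% of all genes), with a median log2FC of 0.10. The 3 lower were the pericyte genes Abcc9 (-1.01), Kcnj8 (-0.90) and Vtn (-0.88). The 11 markers of activated fibroblasts, with Acta2 in both lists, summed to 563 to 592 CPM in Ctr. Their sum was 2299 to 4779 CPM under ISO and 8216 to 10614 CPM under ISO/PE. In ISO/PE vs. Ctr 10 of the 11 were called higher and 0 lower (16% and 10.1% of all genes), with a median log2FC of 4.51. The part of either set of markers in the count was not tested.

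Of 14 early response genes that SRF serves with ternary complex factors, 8 were called higher in ISO/PE vs. Ctr, 6 in ISO vs. Ctr and 4 in ISO/PE vs. ISO (16%, 10.4% and 3.64% of all genes). None was called lower by edgeR, DESeq2 or limma-voom, where edgeR called 10.1%, 2.99% and 2.81% of all genes lower. At an unadjusted p under 0.05 in edgeR 1, 0 and 1 were lower. The median log2FC values were 0.96, 0.43 and 0.41. When a heart was left out, the 8 became 8 to 9, the 6 became 4 to 7 and the 4 became 3 to 5. Egr2 went from 1.46 ± 0.426 CPM in Ctr to 4.59 ± 1.93 under ISO and 14.2 ± 3.42 under ISO/PE (SD, n = 3), with a log2FC of 3.29 ± 0.35 in ISO/PE vs. Ctr (adjusted p = 2.37e-05, edgeR) and of 1.64 ± 0.29 in ISO/PE vs. ISO (adjusted p = 0.00592). Egr3, of the same zinc finger family, had log2FC values of 2.54 and 1.04, and Junb, a subunit of AP-1, 1.53 and 0.63, all called. The call of Junb in ISO/PE vs. ISO was lost without ISO/PE male2 (0.55). Fos (1.65) and Fosb (1.57), further AP-1 subunits, were called higher in ISO/PE vs. Ctr and in ISO vs. Ctr, and their values in ISO/PE vs. ISO of 0.36 and 0.47 were not. The call of Fosb in ISO vs. Ctr (1.11) was lost without Ctr female2, Ctr male1, ISO male1 or ISO male2 (0.80 to 1.18, adjusted p = 0.0568 to 0.131, edgeR). Dusp1, a phosphatase of MAP kinases, went the other way, with -0.41 in ISO/PE vs. Ctr and -0.44 in ISO/PE vs. ISO (adjusted p = 0.00432 and 0.0126, edgeR), short of the fold threshold, and Ier2 (0.13) and Mcl1 (0.12) did not pass the adjusted p in ISO/PE vs. Ctr. These 3 genes were named after their values were seen.

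**Figure D5:**
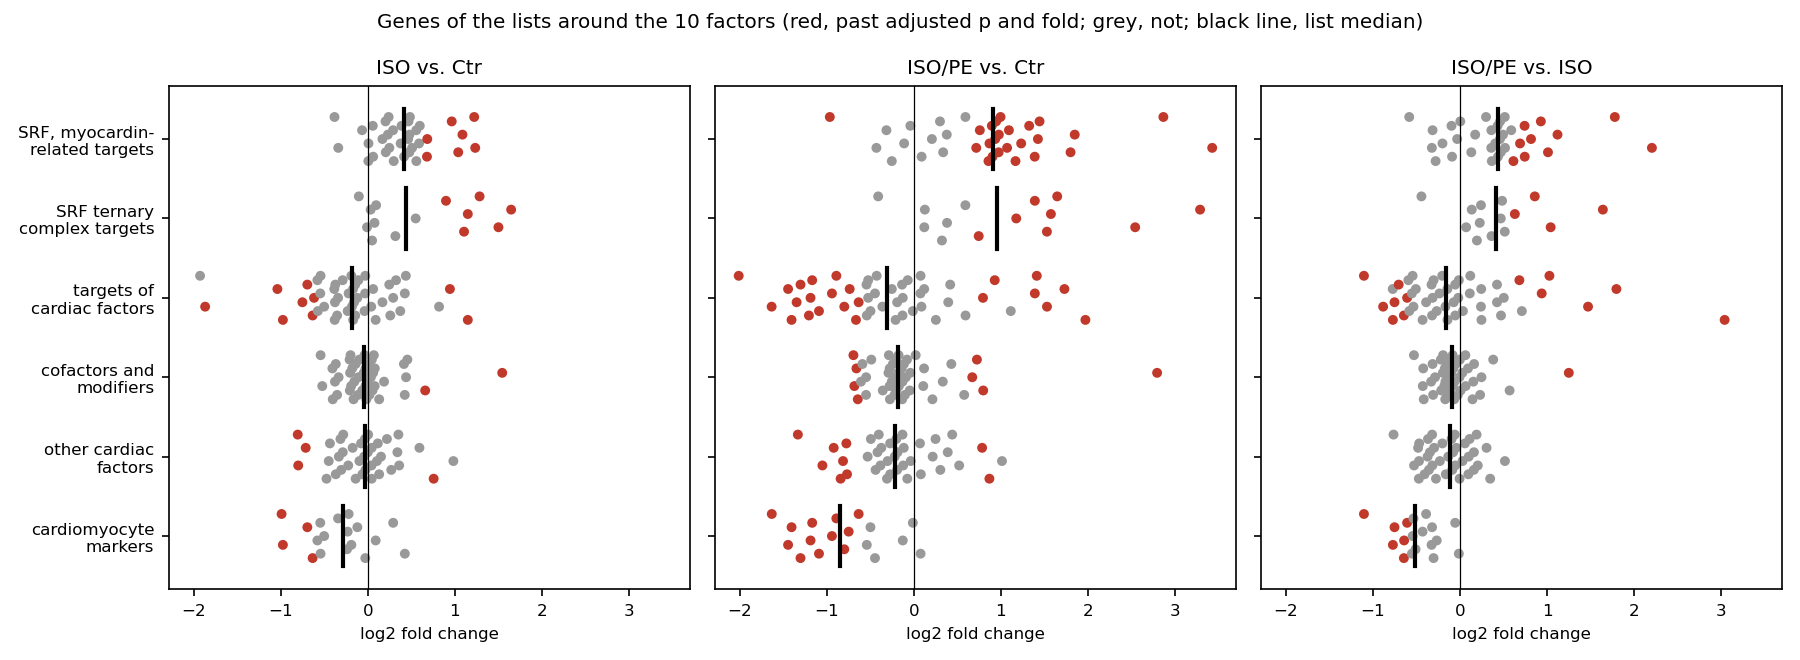
Log2 fold change (x axis) of every tested gene in 5 lists of genes around the factors and in the cardiomyocyte markers (y axis) for each comparison, with called genes in red, others in grey and the list median as a black line. The medians of both SRF target lists lie to the right (0.90 and 0.96 in ISO/PE vs. Ctr) and that of the cardiomyocyte markers to the left (-0.85).

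Target genes of the other factors were called in both directions. The list held 48 genes known to be driven in heart muscle by GATA4, NKX2-5, TBX5, the MEF2 factors or their partners. In ISO/PE vs. Ctr 7 were called higher and 16 lower (16% and 10.1% of all genes). The counts were 2 and 7 in ISO vs. Ctr (10.4% and 2.99% of all genes) and 6 and 7 in ISO/PE vs. ISO (3.64% and 2.81%). The median log2FC values were -0.31, -0.18 and -0.16. Scaling to the cardiomyocyte markers gave 24 higher and 3 lower in ISO/PE vs. Ctr (71.4% and 1.03% of all genes). Many of the 48, such as Myh6, Actc1 and Tnnt2, are themselves among the markers that set this scaling. It thus partly fixes these counts, which cannot be set against the shares of all genes. Nppa, the atrial natriuretic peptide, was at 366 ± 46.9 CPM in Ctr, 704 ± 312 under ISO and 1435 ± 325 under ISO/PE, and was called higher in all 3 comparisons (log2FC 0.94, 1.97 and 1.03 in ISO vs. Ctr, ISO/PE vs. Ctr and ISO/PE vs. ISO). Its call in ISO vs. Ctr was lost without any 1 of the Ctr hearts, ISO male1 or ISO male2 (0.60 without the last) and its call in ISO/PE vs. ISO without ISO female2, ISO male1, ISO/PE female2 or ISO/PE male1 (0.73 to 1.06). Ankrd1, a stress-responsive titin-binding protein, rose with a log2FC of 1.73 ± 0.30 in ISO/PE vs. Ctr (adjusted p = 0.000667) and of 1.47 ± 0.30 in ISO/PE vs. ISO (adjusted p = 0.00990), and skeletal actin Acta1 rose with 1.53 ± 0.45 (adjusted p = 0.0158) in ISO/PE vs. Ctr. For Acta1 the call was lost without ISO/PE male1 (0.91, adjusted p = 0.0828, edgeR) or Ctr female1 (1.20, adjusted p = 0.0511). The M-band protein gene Myom2 fell, from 1494 ± 231 CPM in Ctr to 409 ± 85.7 in ISO and 369.8 ± 73.3 in ISO/PE hearts (log2FC -1.87 and -2.01). Adra1a, the alpha1A-adrenoceptor, fell in all 3 comparisons, from 20.6 ± 0.955 CPM in Ctr to 12.2 ± 3.54 in ISO and 6.62 ± 0.318 in ISO/PE hearts. The call of Adra1a was lost in ISO vs. Ctr without ISO male2 (-0.53) and in ISO/PE vs. ISO without ISO female2 (-0.77) or ISO male1 (-0.74), and both were lost when scaled to the cardiomyocyte markers (-0.41 and -0.33). Of the 48 genes 18 are also markers of cell types, and among the other 30 the calls in ISO/PE vs. Ctr were 5 higher and 6 lower. The counts of the list in the other comparisons hung on single hearts: the 2 higher in ISO vs. Ctr became 0 without Ctr female1, Ctr female2, Ctr male1 or ISO male1 and 1 without ISO male2, and the 7 lower became 4 without ISO male2. In ISO/PE vs. ISO the 6 higher became 3 without either female2 heart, and the 7 lower became 2 without ISO female2 or ISO male1. Of the 18 cardiomyocyte markers 12 were called lower in ISO/PE vs. Ctr, 4 in ISO vs. Ctr and 6 in ISO/PE vs. ISO (10.1%, 2.99% and 2.81% of all genes). By edgeR, DESeq2 or limma-voom 0 were called higher, where edgeR called 16%, 10.4% and 3.64% of all genes higher. At an unadjusted p under 0.05 in edgeR 1 was higher, in ISO vs. Ctr.

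The GATA factors and Nkx2-5, the core of the cardiac programme, missed the fold threshold in all 3 comparisons with TMM scaling. Gata4 (chr14:63198914-63271712) had 231, 220.3 and 201 CPM in Ctr, 167, 182 and 177 CPM in ISO and 171, 159.7 and 195 CPM in ISO/PE hearts. All treated hearts lay below all Ctr hearts, by 19.3% on the linear scale in either comparison. The log2FC was -0.31 ± 0.09 in both, short of the fold threshold (adjusted p = 0.0342 in ISO vs. Ctr and 0.0190 in ISO/PE vs. Ctr, edgeR). When a heart was left out, these adjusted p values ran from 0.0212 to 0.124 and from 0.00635 to 0.0768. Both values turned in sign when scaled to the cardiomyocyte markers (0.05 and 0.59). Gata4 in ISO/PE vs. ISO had a log2FC of 0.00 ± 0.09 (adjusted p = 0.995).

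Gata6 (chr18:11052510-11085636), which overlaps with Gata4 in function, had 116, 115 and 121 CPM in Ctr, 127, 126 and 104 CPM in ISO and 103, 89.6 and 111 CPM in ISO/PE hearts. The ISO/PE hearts lay below the Ctr hearts without overlap, and the ISO hearts overlapped with both groups. None of its comparisons passed the adjusted p, with -0.21 ± 0.10 in ISO/PE vs. Ctr (adjusted p = 0.102, edgeR), -0.24 ± 0.10 in ISO/PE vs. ISO (adjusted p = 0.136) and 0.02 ± 0.10 in ISO vs. Ctr (adjusted p = 0.890). The antisense gene 1010001N08Rik shares 1.43% of the exon bases of Gata6. The ratio of Gata4 to Gata6 counts was 1.66 to 2.00 in Ctr, 1.31 to 1.70 in ISO and 1.66 to 1.78 in ISO/PE hearts, and the groups overlapped.

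Nkx2-5, the homeodomain factor of the cardiac lineage (chr17:26838664-26844988), had 141, 149.6 and 144 CPM in Ctr, 164, 170.3 and 151 CPM in ISO and 149, 157 and 160.4 CPM in ISO/PE hearts. ISO hearts lay above Ctr hearts by a narrow gap, and ISO/PE hearts overlapped with Ctr hearts. The log2FC was 0.16 ± 0.08 in ISO vs. Ctr (adjusted p = 0.160, edgeR), 0.10 ± 0.08 in ISO/PE vs. Ctr (adjusted p = 0.297) and -0.06 ± 0.08 in ISO/PE vs. ISO (adjusted p = 0.664). Its spread between hearts of a group was small, with a coefficient of variation of 2.99% to 6.25%, where that of Myocd in ISO/PE hearts was 22.4%.

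Of 38 other transcription factors of the heart, 2 were called higher and 7 lower in ISO/PE vs. Ctr (16% and 10.1% of all genes). In ISO vs. Ctr 1 was called higher and 3 lower (10.4% and 2.99% of all genes). In ISO/PE vs. ISO edgeR called 0, where it called 3.64% of all genes higher and 2.81% lower. There 2 were higher and 9 lower at an unadjusted p under 0.05, and DESeq2 or limma-voom called 0. The median log2FC values were -0.21, -0.04 and -0.12 in the same order of comparisons. Scaling to the cardiomyocyte markers gave 21 higher and 0 lower in ISO/PE vs. Ctr (71.4% and 1.03% of all genes). The 1 higher in ISO vs. Ctr, Tcf21, became 2 genes without Ctr female2, Ctr male1 or ISO male1. Hopx, a homeodomain protein that binds SRF and restrains it, fell from 435 ± 48.7 CPM in Ctr to 249 ± 16.8 in ISO and 173 ± 37.9 in ISO/PE hearts (log2FC -0.81 and -1.33, adjusted p = 0.00202 and 2.81e-05). Irx3, an Iroquois factor of the ventricular conduction system, fell to a like extent in both, from 91.4 ± 4.04 to 52.5 ± 4.71 and 51.0 ± 3.97 CPM (log2FC -0.80 and -0.84, the latter 0.05 when scaled to the cardiomyocyte markers). Sall4, a partner of TBX5 (log2FC -1.05, from 4.09 to 1.98 CPM) and Gata3 (-0.92, from 2.03 to 1.07 CPM) fell in ISO/PE vs. Ctr from low levels, and Foxc2, a forkhead factor of vessels and mesenchyme, rose (0.87). The call of Gata3 was lost with DESeq2 (adjusted p = 0.0589) and in edgeR without Ctr female1, Ctr male1, ISO/PE female2 or ISO/PE male2 (adjusted p = 0.0639 to 0.0869), and scaled to the cardiomyocyte markers Sall4 had -0.17 and Gata3 -0.05.

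Among 44 cofactors and modifiers of the factors, 4 were called higher and 4 lower in ISO/PE vs. Ctr (16% and 10.1% of all genes). The counts were 2 and 0 in ISO vs. Ctr (10.4% and 2.99% of all genes) and 1 and 0 in ISO/PE vs. ISO (3.64% and 2.81%). The median log2FC values were -0.18, -0.04 and -0.09. At an unadjusted p under 0.05 in edgeR, 11 in ISO vs. Ctr and 9 in ISO/PE vs. ISO were lower, and DESeq2 and limma-voom called 0 lower. Csrp2, a LIM protein that bridges SRF and GATA factors, rose from 22.6 ± 1.38 CPM in Ctr to 65.9 ± 18.9 in ISO and 157 ± 29.6 in ISO/PE hearts (log2FC 1.55 and 2.80, and 1.25 for ISO/PE vs. ISO, adjusted p = 0.000322, 3.75e-06 and 0.00339), and its relative Csrp1 had 0.80 in ISO/PE vs. Ctr. Nfatc4, the calcineurin-responsive factor that binds GATA4, rose in both comparisons with Ctr (0.66 and 0.72), and Mrtfa, a myocardin-related partner of SRF, in ISO/PE vs. Ctr (0.67). The 4 genes called lower there were Hdac4 (-0.68), Hdac5 (-0.65) and Hdac9 (-0.70), class IIa deacetylases that hold MEF2 in check, and Foxo4 (-0.66), which binds myocardin. Hdac7, of the same class, had -0.08 (adjusted p = 0.466, edgeR). Mrtfa, Hdac5, Hdac7 and Foxo4 were named after their values were seen. Without ISO/PE male1 the 4 lower became 1, and with total-count scaling they became 0. Scaled to the cardiomyocyte markers 32 of the 44 genes were called higher and 0 lower in ISO/PE vs. Ctr, where 71.4% and 1.03% of all genes were, and Hdac4 and Hdac9 had log2FC values of 0.22 each in ISO/PE vs. Ctr.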

How the data were processed

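The deposited values are raw counts for RefSeq transcripts. The authors aligned the reads with STAR to mm10 and counted them over exons irrespective of strand (the paper's methods name analyzeRepeats.pl, the submitters' processing notes featureCounts). The versions of these tools were not given in the sources used. Counts were deposited without pooling of replicates in a pair of tables with 6 hearts each. The table named for ISO/PE and Ctr holds columns of ISO/PE and ISO hearts. Further columns hold the authors' normalized counts, RPKM and DESeq2 fold changes, standard errors and p values, and were not used.

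The tables were joined on 29889 transcripts, and 1 transcript, that with most counts over the 9 hearts, stood for each of 15149 genes. Low counts were filtered with filterByExpr (at least 10 per library and 15 in all), which left 14426 genes. They were tested in R 4.3.3 with edgeR 4.0.16 (TMM, glmQLFit, glmQLFTest) in 1 fit of 9 hearts without covariates. DESeq2 1.42.0, the study's tool, and limma 3.58.1 served as alternatives. Standard errors are the fold change divided by the root of the F value. CPM used TMM library sizes, and log2 CPM had a prior count of 2. The fit was tested on simulated data. P values set a difference between groups against the spread between hearts within groups, estimated from all 9 hearts with 3 per group. The 353 to 4034 counts of a factor in a heart set its counting precision.

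Genes named by rule are the 10 factors, up to 5 called genes of each list with the largest log2 fold change in size in ISO/PE vs. Ctr, and the 3 genes most correlated with the called factor of largest change. Besides those marked so above, Tcf21, Gsn, Dcn, Pdgfra, Ddr2, Actc1, Actn2, Ryr2, Kcnj8 and Vtn were named after their values were seen. Antisense genes were named for their overlap with a factor. The factors and lists were chosen with earlier results of these data known. Alternatives were DESeq2, limma-voom, scaling by total counts or cardiomyocyte markers, no filter, the 2 groups compared alone, the longest transcript, the adjusted p alone, sex or replicate name as a term, males alone, and each heart left out. Promoter windows are from RefSeq (GRCm38.p6), gene positions from the same build and exon overlaps from GENCODE.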

Additional observations from a re-analysis of the deposited data

How the results depend on the processing

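With limma-voom, with the 2 groups compared alone and with the longest transcript, all 30 log2 fold changes of the factors kept their direction and call, and with no filter all but Gata4 in ISO/PE vs. ISO, at 0.00, kept the direction. By the adjusted p alone 7 factors differed in ISO/PE vs. Ctr, 4 in ISO vs. Ctr and 3 in ISO/PE vs. ISO, in place of 3, 2 and 1. DESeq2 called 1 factor in ISO vs. Ctr, since Tbx20 had 0.597 there. Total-count scaling called 0 factors in ISO/PE vs. ISO, as did the fit of males alone, with Tbx5 at -0.59 and -0.58. Leaving out each heart in turn gave 3 to 4 called factors in ISO/PE vs. Ctr, 1 to 2 in ISO vs. Ctr (1 without Ctr male1, ISO male1 or ISO male2) and 0 to 1 in ISO/PE vs. ISO (0 without ISO female2).

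Scaling by summed cardiomyocyte markers called 5 factors in ISO/PE vs. Ctr, all higher and with Tbx20 the only 1 of the 3 called before, and so did scaling by their geometric mean, which was added after seeing the data, where 71.4% and 68.1% of all genes were called higher. Both shifted the median of all genes, by 0.88 and 0.84 in ISO/PE vs. Ctr, and turned the sign of 18 of the 30 values. In ISO/PE vs. Ctr the values became 0.59 and 0.54 for Gata4 (sum, then geometric mean), 0.69 and 0.64 for Gata6, 0.26 and 0.21 for Tbx5, 0.37 and 0.33 for Mef2a, 0.56 and 0.51 for Mef2c, 0.15 and 0.095 for Myocd, 0.052 and 0.0054 for Irx3, 0.22 and 0.17 for Hdac4 and 0.22 and 0.16 for Hdac9. In ISO vs. Ctr Gata4 became 0.049 and 0.034, Tbx5 0.34 and 0.33, Mef2a 0.29 and 0.27 and Mef2c 0.30 and 0.29. In ISO/PE vs. ISO the values became 0.54 and 0.50 for Gata4, 0.48 and 0.45 for Nkx2-5, 0.089 and 0.056 for Mef2a, 0.26 and 0.22 for Mef2c, 0.51 and 0.48 for Srf, 0.32 and 0.28 for Gata6, 0.34 and 0.30 for Hand2 and 0.29 and 0.25 for Myocd, and Tbx5 lost its call at -0.085 and -0.12. The cause of the marker shift was not tested. With it, 32 of the 35 SRF and myocardin-related targets were called higher in ISO/PE vs. Ctr, and 31 with the geometric mean, in place of 23.

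The names of the hearts did not pair them: deviations of same-named ISO and ISO/PE hearts correlated by 0.0116, -0.0532 and -0.117, and over all 7 same-named pairs, Ctr included, by up to 0.182 (Ctr and ISO female2) and 0.168 (Ctr and ISO/PE male1), against -0.21 to 0.159 in 20 other pairs. A fit with the replicate name as a block called 2 factors in ISO/PE vs. Ctr, 2 in ISO vs. Ctr and 1 in ISO/PE vs. ISO, and the lost call was Tbx5 in ISO/PE vs. Ctr (-0.53, adjusted p = 0.0112, edgeR). With sex as a term the same call was lost (-0.56). The fit of males alone holds 1 Ctr heart, which was assumed to vary like the others.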
